A study of Homo sapiens with 27 samples.

Results

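The genes described here are 40 mitotic genes, whose products are the kinases, kinetochore proteins and spindle proteins of dividing cells, among 57905 genes counted in U937 cells. They were chosen by symbol: 6 code for cyclins, CDK1 and its phosphatases, 6 for Polo and Aurora kinases and the passenger complex, 5 for spindle checkpoint proteins, 7 for centromere and kinetochore proteins, 9 for kinesins and other spindle-associated proteins, 4 for proteins of anaphase and mitotic exit, and 3 are TOP2A, MKI67 and FOXM1. All 40 symbols matched 1 gene each, and all 40 passed the filter on low values in every comparison. U937 is a human cell line that the study describes as acute myeloid leukaemia, and matrine is an alkaloid from Sophora roots. RNA-seq was carried out on 9 libraries: 3 of control U937 cells, 3 of cells given matrine at 0.8 mg/ml 30 min earlier and 3 of cells kept with the same dose over 24 h. The study names ddH2O as the vehicle, and how long the controls were cultured is not given in the sources used here, so time in culture and matrine treatment cannot be told apart at 24 h. The study asked which genes respond rapidly to matrine and whether transcription that depends on c-Myc is lowered.

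Cells enter mitosis when CDK1, bound to cyclin B, is switched on by CDC25 phosphatases. Polo-like and Aurora kinases then build the spindle, and kinetochores tie chromosomes to its microtubules. The spindle checkpoint holds back the anaphase-promoting complex until every chromosome is attached, after which CDC20 and UBE2C help it to destroy cyclin B and securin. Most of these mRNAs rise in G2 and M phase, under B-MYB, FOXM1 and the MuvB complex, which acts at a promoter element called the cell cycle genes homology region (CHR), often beside CCAAT boxes. In bulk RNA, fewer cells in G2 and M phase and less of an mRNA in each cell cannot be told apart.

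Promoter stretches of 230 bases are shown for the 4 members with the largest tested changes at 24 h, CCNB1, PLK1, MAD2L1 and CDC25C, and for CCNB2 and CDC20 for comparison with them. They run from 200 bases before the transcription start to 30 bases after it, are RefSeq sequences of GRCh38.p14, and are written 5′ to 3′ on the gene's strand. Capitals mark the letters TTTGAA of the CHR or CCAAT of the CCAAT box, on either strand, so that a reverse match reads TTCAAA or ATTGG. CCNB1 codes for cyclin B1 (chr5:69166950-69167179, plus strand) and CCNB2 for cyclin B2 (chr15:59104946-59105175, plus strand). PLK1 codes for Polo-like kinase 1 (chr16:23678689-23678918, plus strand) and MAD2L1 for the checkpoint protein MAD2 (chr4:120066819-120067048, minus strand). CDC25C codes for a phosphatase that activates CDK1 (chr5:138331775-138332004, minus strand, 1 of its 4 RefSeq starts), and CDC20 for the activator of the anaphase-promoting complex that the checkpoint holds back (chr1:43358781-43359010, plus strand).
CCNB1: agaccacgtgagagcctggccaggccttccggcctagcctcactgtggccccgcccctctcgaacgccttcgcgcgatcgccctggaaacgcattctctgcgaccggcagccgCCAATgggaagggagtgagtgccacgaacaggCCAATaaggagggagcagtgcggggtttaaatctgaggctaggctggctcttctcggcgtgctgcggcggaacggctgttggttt
CCNB2: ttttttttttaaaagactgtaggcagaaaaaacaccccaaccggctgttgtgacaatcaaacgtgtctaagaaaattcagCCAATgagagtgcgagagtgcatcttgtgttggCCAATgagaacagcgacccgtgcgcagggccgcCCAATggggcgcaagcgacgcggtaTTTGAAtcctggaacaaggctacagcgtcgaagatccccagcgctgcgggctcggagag
PLK1: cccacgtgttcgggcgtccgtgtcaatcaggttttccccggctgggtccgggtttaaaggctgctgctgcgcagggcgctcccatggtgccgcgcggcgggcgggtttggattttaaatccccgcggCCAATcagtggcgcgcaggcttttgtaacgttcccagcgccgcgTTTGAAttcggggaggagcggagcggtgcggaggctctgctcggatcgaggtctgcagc
MAD2L1: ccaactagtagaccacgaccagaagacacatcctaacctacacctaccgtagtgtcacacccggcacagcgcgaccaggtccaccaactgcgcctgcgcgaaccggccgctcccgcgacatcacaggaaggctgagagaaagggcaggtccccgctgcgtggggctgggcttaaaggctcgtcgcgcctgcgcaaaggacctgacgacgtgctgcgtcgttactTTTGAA
CDC25C: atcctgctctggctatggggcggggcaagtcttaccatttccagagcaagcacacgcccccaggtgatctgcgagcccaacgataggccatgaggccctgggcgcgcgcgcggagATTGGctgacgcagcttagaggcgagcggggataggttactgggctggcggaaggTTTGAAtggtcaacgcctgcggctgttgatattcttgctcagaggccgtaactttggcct
CDC20: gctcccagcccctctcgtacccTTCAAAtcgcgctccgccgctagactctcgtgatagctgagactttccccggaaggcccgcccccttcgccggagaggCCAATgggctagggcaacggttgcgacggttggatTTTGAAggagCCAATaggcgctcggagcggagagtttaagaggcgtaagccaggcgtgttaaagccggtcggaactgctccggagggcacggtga
The CHR letters began 29 bases before the start in CCNB2 and in PLK1 and 30 bases before it in CDC25C. For CDC25C, which has several starts, a start whose window held these letters was preferred for printing. Their presence in its stretch was thus fixed by that choice. CDC20 held them 65 bases before the start and, on the other strand, 178 bases before it. MAD2L1 held them at 25 bases after the start, and CCNB1, with CCAAT boxes at 87 and 55 bases before the start, did not hold them in this stretch. Members with and without these letters thus stand among those that changed the most. Only TTTGAA and its reverse TTCAAA were searched for, so a stretch without them is not shown to lack the element in other letters.

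In whole windows of 300 bases, 250 before to 50 after a start, 33 of the 40 members had a RefSeq sequence in the table used. The CHR letters stood in 23 of these 33 members (69.7%), against 18.2% of all 27305 genes with a window and 13.4% of the 8584 genes tested at 24 h that had one. The CCAAT box stood in 28 of 33 members (84.8%), against 39.7% of all genes with a window and 43.1% of those tested at 24 h. Both stood in 20 of 33 members (60.6%), against 8.37% and 7.21%. Both strands were searched, and a match to TTTGAA can share an end letter with a match to CCAAT. A gene with several starts was counted as holding a motif where any of its windows held it. Motifs counted as standing together may therefore lie in different windows of such a gene. The E-box CACGTG, the element that c-Myc and MAX bind, stood in 4 of 33 members (12.1%), which were CCNB1, PLK1, CENPE and CENPF, against 8.77% of all genes with a window and 13.2% of those tested at 24 h, and it is seen in lower case near the 5′ end of the CCNB1 and PLK1 stretches. Among the 24 members with a window that fell at 24 h by the test given with the changes, 18 (75%) held the CHR letters, and among the 9 that did not fall, 5 (55.6%) did. The CCAAT box went the other way, with 19 of the 24 (79.2%) and 9 of the 9 (100%). The E-box stood in 4 of the 24 (16.7%) and 0 of the 9. The members with more than 1 window, CDK1, CDC25B, CDC25C, AURKB and PTTG1, were all among the 9 that did not fall. Each of the 24 that fell had 1 window, so the 2 shares of a motif are not on equal terms. These counts describe letters in a window and were not tested.

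Library totals lay between 17314931 and 20796079 counts for control libraries, between 20402383 and 21930018 for 30 min libraries and between 20366304 and 21849040 for 24 h libraries. The 40 members together took 0.721% ± 0.0292 of a library's counts in the control (SD, n = 3), 0.720% ± 0.0267 after 30 min (SD, n = 3) and 0.605% ± 0.0106 after 24 h (SD, n = 3). Their lowest count in any library was 101, for CDC25C. Of 10 myeloid marker genes, 9 reached 1 FPKM (fragments per kilobase of gene length, scaled by the library total) in at least 1 library. CSF1R stayed below it, and MPO reached it only after 24 h. None of 7 epithelial and fibroblast markers and 1 of 7 erythroid and megakaryocytic markers (KLF1) reached it. The myeloid markers summed to 488 to 494 FPKM in the control, 473 to 498 after 30 min and 557.7 to 562.5 after 24 h. Of the 9 tested at 24 h, 5 rose and 3 fell, where 31.5% of all genes tested rose and 31.8% fell. Of the same 9, 4 were called higher (44.4%, against 15.1% of all genes tested). FCER1G, a subunit of Fc receptors, went from 47.8 to 162 mean FPKM. The others that rose were CSF3R (9.59 to 21.5), PTPRC (16.4 to 24.2), ITGAM (1.28 to 3.15) and MPO (0.313 to 1.84). MPO passed the filter on mean FPKM only through its 24 h libraries, so its rise was in part fixed by that filter. Lysozyme (LYZ, 292 to 244) and the transcription factors SPI1 (67.6 to 56.0) and CEBPA (41.0 to 32.9) fell. Whether these differences have a part in the members' change was not tested. The labels do not say that libraries of a group came from separate cultures, so p-values measure the spread between these libraries, which may be technical.

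In control cells the members' mRNA levels ran from 1.94 ± 0.275 FPKM for CDC25C to 186 ± 7.26 FPKM for TPX2, a spindle assembly factor that activates Aurora A (SD, n = 3 for each). CDC20 followed TPX2 at 156 ± 7.46 FPKM (SD, n = 3), then CCNB1 at 102 ± 0.753 FPKM and CCNB2 at 92.6 ± 0.786 FPKM (SD, n = 3). The control libraries of these 4 genes did not overlap with each other. At the low end, CENPE at 8.41 ± 1.15 FPKM and SPC24 at 8.21 ± 0.755 FPKM overlapped (SD, n = 3), so their order is not set by these libraries. By mean CPM (counts scaled by the library total), the median member stood at percentile 84.3 of the genes tested at 24 h, so most members were measured with more counts than a typical gene.

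**Figure D1:**
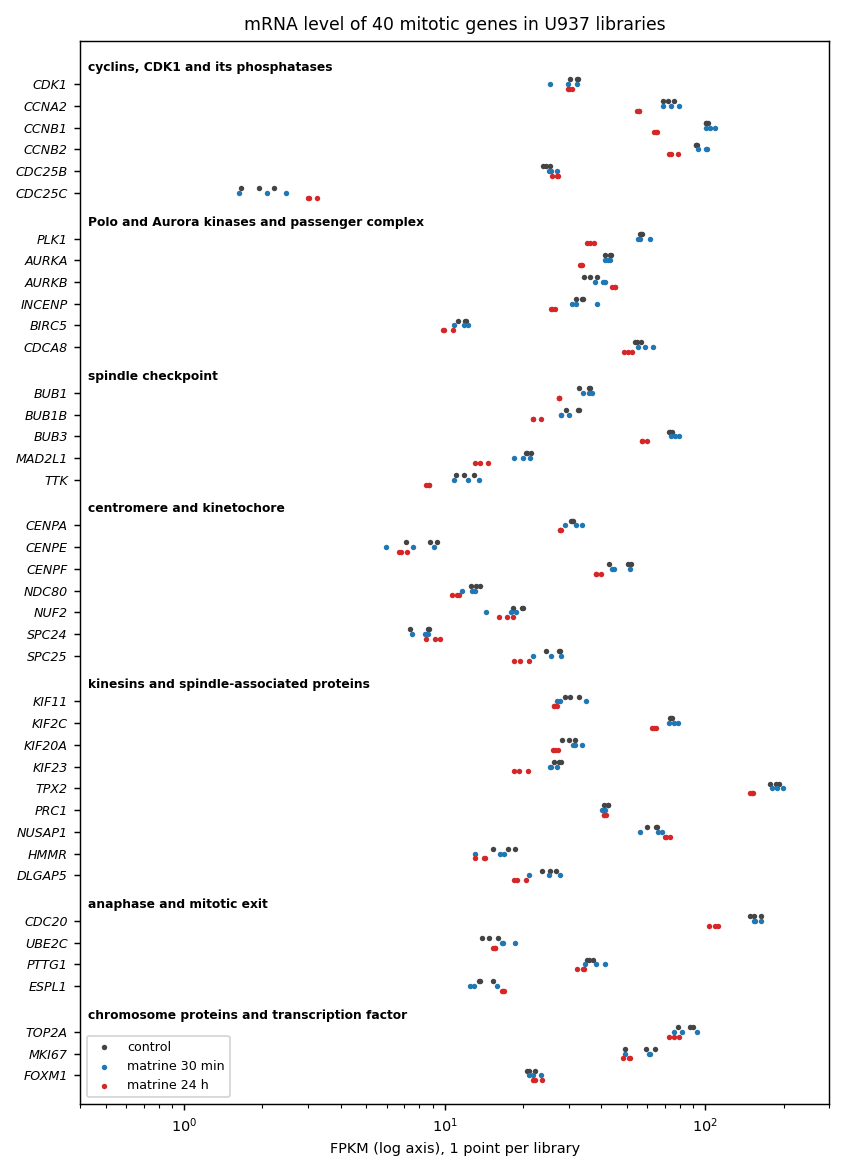
FPKM on a log axis of the 40 mitotic genes, grouped by role, with 1 point per library (3 control, 3 matrine 30 min, 3 matrine 24 h). The CCNB1 points after 24 h (63.4 to 65.5) sit to the left of all its control points (101 to 103), and those of CDC25C (2.99 to 3.23) sit to the right of its control points (1.66 to 2.21).

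To see whether the mitotic genes were among those that respond early, the 30 min libraries were set against the control with edgeR's quasi-likelihood test. A gene is said to have risen or fallen where its Benjamini-Hochberg adjusted p over all genes tested was below 0.05, and to have been called where its fold change also reached 1.5. None of the 40 members fell or rose and none was called, where 1.33% of the 11587 genes tested fell, 0.293% rose, 0.544% were called lower and 0.0949% were called higher. DESeq2 gave 0 members as well. At an unadjusted p below 0.05 there were 3 members with edgeR (UBE2C, AURKB and BUB1B) and 4 with DESeq2, against 11.1% of all genes with edgeR. The members' log2 fold changes ran from -0.17 for NUF2 to 0.23 for UBE2C, with a median of 0.02 against a median of -0.004 over all genes tested, and the smallest adjusted p was 0.264 (edgeR). The 95% interval of the log2 fold change lay within 1.5-fold either way for 40 of 40 members, so changes of that size were outside the interval for each of them at this depth. UBE2C, the ubiquitin-conjugating enzyme of the anaphase-promoting complex, had 14.8, 16.1 and 13.9 FPKM in the control libraries and 18.6, 16.8 and 16.6 FPKM in the 30 min libraries. All its 30 min libraries stood above all its control libraries, and those of CCNB2 did too, on the scale of TMM-normalised CPM, where 5.6% of all genes tested did so. In no member did all 30 min libraries stand below all controls, as 8.36% of all genes tested did, and CCNB2 had a log2 fold change of 0.10 (adjusted p = 0.533, edgeR).

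**Figure D2:**
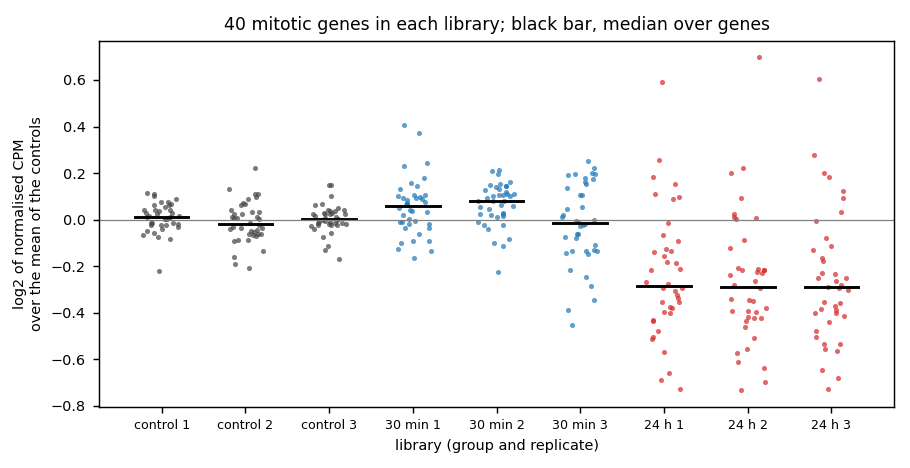
Each point is 1 of 40 mitotic genes in 1 library, as the log2 of its TMM-normalised CPM over the mean of the 3 control libraries, with the median over genes as a black bar. The medians of the 24 h libraries lie at -0.29, those of the other libraries between -0.02 and 0.08, and the 30 min replicate 3 points spread further than those of 30 min replicate 1 and 2 below the line.

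After 24 h of matrine treatment 29 of the 40 members fell (72.5%) and 3 rose (7.5%), where 31.8% of the 12035 genes tested fell and 31.5% rose. The median log2 fold change of the members was -0.28, against 0.01 over all genes tested. Most of the falls were small: 8 of the 29 were below 1.2-fold, 18 lay between 1.2-fold and 1.5-fold and 3 reached 1.5-fold. They ran from -11.4% for CDCA8 to -38.5% for CCNB1, with a median of -22.6%. Thus 3 members were called lower (7.5%, against 11.2% of all genes tested) and 1 was called higher (2.5%, against 15.1%). Of the members that fell, 89.7% did so by less than 1.5-fold, against 64.9% of all genes that fell. All 24 h libraries stood below all control libraries in 32 members, against 34.5% of all genes tested, and above them in 4 members, against 35.3%, on TMM-normalised CPM. On the FPKM scale, which is set by library totals, the numbers were 27 below (all genes 31%) and 5 above (all genes 38.7%). With 3 libraries in each group, an exact two-sided permutation test of 1 gene gives no p below 0.1.

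**Figure D3:**
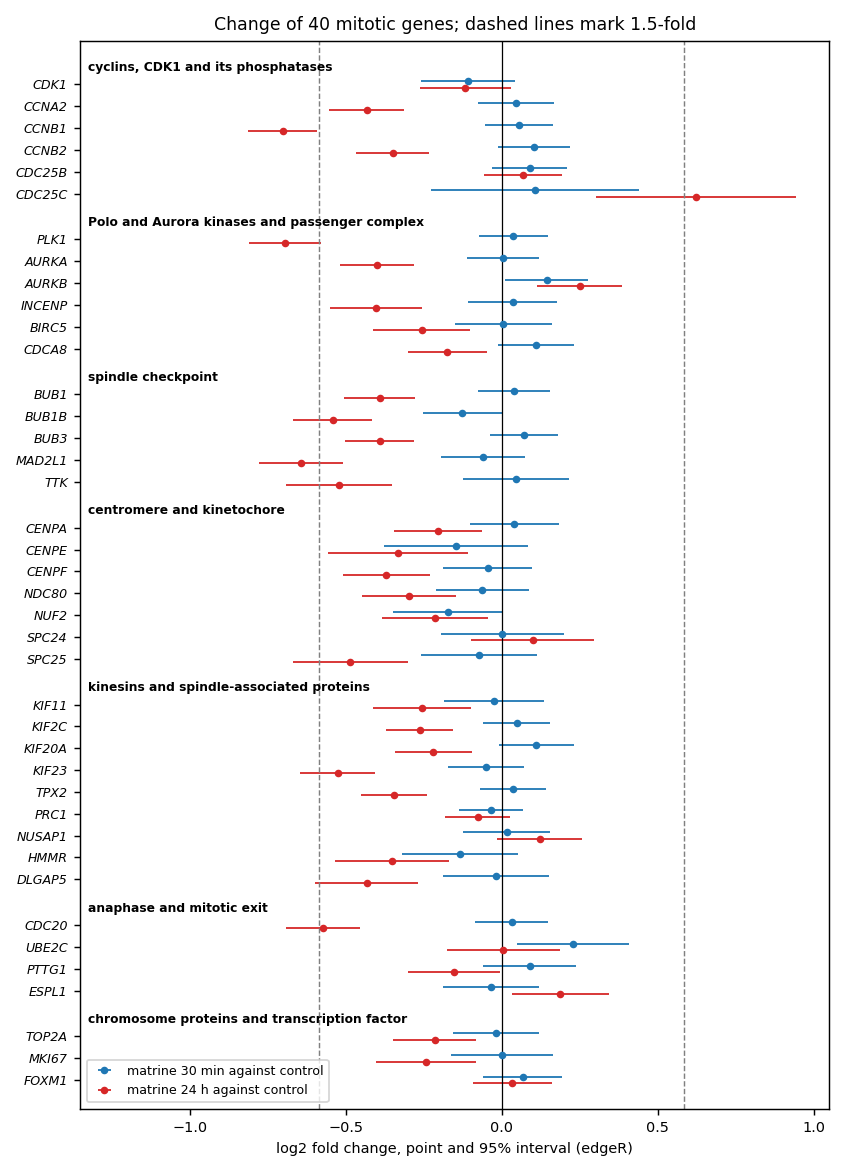
Log2 fold change of the 40 mitotic genes against the control after 30 min and after 24 h, as points with 95% intervals from edgeR, with dashed lines at 1.5-fold in either direction. The 30 min points lie between -0.17 and 0.23, whereas the 24 h points lie between -0.70 and 0.62 and most are left of 0.

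**Figure D4:**
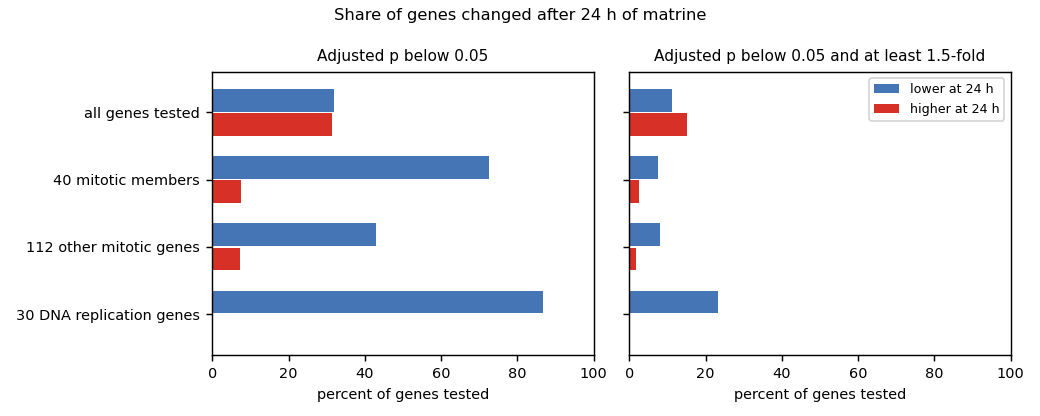
Percent of genes lower or higher after 24 h, by adjusted p alone (left) and with a fold change of at least 1.5 as well (right), for all 12035 genes tested, the 40 members, 112 other mitotic genes and 30 DNA replication genes. The bar of fallen members (72.5%) is longer than that of all genes (31.8%) on the left, while the bar of called lower members (7.5%) is shorter than that of all genes (11.2%) on the right.

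Of the 3 cyclin genes all fell, and CCNB1 had the largest change of the 40 members. CCNB1 (ENSG00000134057, GRCh38 chr5:69167135-69178245) was at 101, 103 and 101 FPKM in the control libraries, 104, 109 and 100.4 FPKM after 30 min and 65.5, 63.4 and 65.0 FPKM after 24 h. Every 24 h library was below every library of the other groups, and against the control CCNB1 fell by 0.70 on the log2 scale (adjusted p = 3.6e-10 with edgeR, standard error 0.0533). CCNB2, the other B-type cyclin, went from 92.6 ± 0.786 FPKM to 75.2 ± 3.32 FPKM (SD, n = 3), which is a fall by 0.35 on the log2 scale (adjusted p = 1.6e-05 with edgeR, standard error 0.0565). The ratio of CCNB1 to CCNB2 in FPKM was 1.10 ± 0.0166 in the control and 0.861 ± 0.0503 after 24 h (SD, n = 3), a pair chosen after its values were seen. CCNA2, cyclin A2 of S and G2 phase, fell by 0.43 on the log2 scale (72.3 ± 3.81 to 55.3 ± 0.675 FPKM, SD, n = 3; adjusted p = 1.5e-06, edgeR). CDK1, the kinase that these cyclins bind, passed no test. It was at 32.5, 30.3 and 32.4 FPKM in the control, 29.8, 32.4 and 25.3 FPKM after 30 min and 30.9, 30.2 and 29.7 FPKM after 24 h, and the 24 h and control libraries overlapped in FPKM but not on TMM-normalised CPM, where all 24 h libraries were lower. Its log2 fold change at 24 h was -0.12 with a 95% interval from -0.26 to 0.03 (adjusted p = 0.156, edgeR).

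CDC25B and CDC25C are phosphatases that remove the inhibitory phosphates from CDK1, and of these CDC25C rose while CDC25B passed no test. CDC25C (ENSG00000158402, chr5:138285269-138338355) was at 1.66, 2.21 and 1.94 FPKM in the control, 2.46, 1.62 and 2.09 FPKM after 30 min and 3.01, 3.23 and 2.99 FPKM after 24 h. All 24 h libraries were above all others, and the log2 fold change of 0.62 had a 95% interval from 0.30 to 0.94 (adjusted p = 0.0014 with edgeR, standard error 0.154). It was the lowest of the 40 members, with 102 to 130 counts in a control library, and 8.80% of its exonic bases are shared with FAM53C on the other strand. Without control replicate 1 its log2 fold change was 0.51, below 1.5-fold. CDC25B was at 23.9, 25.5 and 24.5 FPKM in the control, 25.6, 25.2 and 27.1 FPKM after 30 min and 27.2, 25.9 and 26.9 FPKM after 24 h. Its 24 h libraries stood above its control libraries in FPKM but overlapped with them on TMM-normalised CPM, and its log2 fold change at 24 h was 0.07 (adjusted p = 0.335, edgeR), or -0.01 with the trend on GC content taken off.

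Among the Polo and Aurora kinases and the chromosomal passenger complex, 5 of 6 fell and 1 rose. PLK1 (ENSG00000166851, chr16:23677656-23690367), the kinase of mitotic entry and centrosome maturation, was at 56.2, 57.0 and 56.8 FPKM in the control, 56.2, 55.4 and 61.4 FPKM after 30 min and 37.3, 36.2 and 35.1 FPKM after 24 h. Its 24 h libraries were below all others, and it fell by 0.69 on the log2 scale (adjusted p = 8.3e-10 with edgeR, standard error 0.0557). Of its exonic bases 12.8% are shared with genes on the other strand. AURKA, the Aurora kinase of the spindle poles, fell by 0.40 on the log2 scale (adjusted p = 2.9e-06, edgeR), from 42.6 ± 1.14 to 33.3 ± 0.272 FPKM (SD, n = 3).

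AURKB, the kinase of the passenger complex, moved the other way from its partners. It was at 34.4, 38.6 and 36.0 FPKM in the control, 41.1, 37.7 and 40.6 FPKM after 30 min and 45.1, 43.9 and 45.1 FPKM after 24 h. Its log2 fold change at 24 h was 0.25 (standard error 0.0655, adjusted p = 0.0022, edgeR), short of 1.5-fold, with all 24 h libraries above all control libraries. Its partners are INCENP, the scaffold of the complex, survivin (BIRC5) and borealin (CDCA8). They fell by 0.40, 0.26 and 0.17 on the log2 scale, with adjusted p of 4.1e-05, 0.0053 and 0.016 (edgeR). The ratio of AURKB to INCENP in FPKM was between 1.02 and 1.21 in the control libraries and between 1.69 and 1.76 after 24 h, a pair chosen after its values were seen.

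All 5 spindle checkpoint genes fell, with a median log2 fold change of -0.52, the lowest of the 7 role groups. MAD2L1 (ENSG00000164109, chr4:120055623-120066858) was at 20.6, 20.7 and 21.4 FPKM in the control, 19.9, 21.2 and 18.5 FPKM after 30 min and 13.1, 14.7 and 13.7 FPKM after 24 h. The 24 h libraries were below all others, and its log2 fold change of -0.64 had an adjusted p of 2.5e-08 with edgeR (standard error 0.0646). BUB1B, which codes for BUBR1 of the mitotic checkpoint complex, fell by 0.54 on the log2 scale, and TTK, the kinase MPS1 that starts checkpoint signalling, fell by 0.52. BUB1, a kinase at kinetochores, and its partner BUB3 each fell by 0.39. In all 5 genes every 24 h library lay below every control library on TMM-normalised CPM. The same held for 32 of the 40 members and for 34.5% of all genes tested. With control replicate 2 left out, BUB1B (-0.61) and TTK (-0.59) reached 1.5-fold as well. Of the exonic bases of BUB1B 10.2% are shared with PAK6 and a readthrough gene.

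Of the 7 kinetochore and centromere genes 6 fell, with a median log2 fold change of -0.30 over the 7, and none was called. The NDC80 complex, which holds microtubule ends, has 4 subunits among the members. SPC25 fell by 0.48 on the log2 scale, NDC80 by 0.30 and NUF2 by 0.21. SPC24, the partner of SPC25, was at 8.60, 8.69 and 7.34 FPKM in the control, 8.40, 7.51 and 8.60 FPKM after 30 min and 9.19, 8.49 and 9.64 FPKM after 24 h. Its groups overlapped, with a log2 fold change of 0.10 and a 95% interval from -0.10 to 0.30 (adjusted p = 0.372, edgeR). CENPF, a large protein of the outer kinetochore, fell by 0.37, CENPE, a kinetochore motor, by 0.33, and CENPA, the histone H3 variant of centromeres, by 0.20.

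Of the 9 kinesin and spindle genes 7 fell and none was called, with a median log2 fold change of -0.26 over the 9. KIF23, a motor of the central spindle and cytokinesis, fell by 0.53 on the log2 scale. The spindle genes DLGAP5, HMMR and TPX2 fell by 0.43, 0.35 and 0.35. The motors KIF2C, which takes microtubules apart, KIF11, which pushes spindle poles apart, and KIF20A, which acts in cytokinesis, fell by 0.26, 0.26 and 0.22. PRC1, which bundles the microtubules of the central spindle, was at 42.5, 41.0 and 42.5 FPKM in the control, 41.2, 40.6 and 40.3 FPKM after 30 min and 41.7, 41.0 and 40.8 FPKM after 24 h. Its 24 h and control libraries overlapped in FPKM but not on TMM-normalised CPM, where all 24 h libraries were lower, and the log2 fold change was -0.08 with a 95% interval from -0.18 to 0.03 (adjusted p = 0.188, edgeR). NUSAP1, a microtubule-binding protein, had a log2 fold change of 0.12 (adjusted p = 0.109, edgeR). Of its exonic bases 86.8% are shared with OIP5, OIP5-AS1 or a readthrough gene, and of those of PRC1 61.9% are shared with other annotated genes, so both values are uncertain where the counting could not tell these genes apart.

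Of the 4 genes of anaphase and mitotic exit 1 fell, 1 rose and 2 passed no test. CDC20 (ENSG00000117399, chr1:43358981-43363203) was at 154, 164 and 149 FPKM in the control, 155, 156 and 163 FPKM after 30 min and 109, 104 and 112 FPKM after 24 h. It fell by 0.57 on the log2 scale (standard error 0.0576, adjusted p = 2.4e-08, edgeR), just short of the 1.5-fold threshold of 0.58. UBE2C was at 15.3, 15.6 and 15.6 FPKM after 24 h, which lay among its control libraries, with a log2 fold change of 0.01 and a 95% interval from -0.18 to 0.19. With DESeq2's size factors the log2 fold change was -0.00257. Its pseudogene UBE2CP5 held 37 to 58 counts in each library, against 394 to 511 counts of UBE2C in the control. PTTG1, which codes for securin, had a log2 fold change of -0.15 (adjusted p = 0.066, edgeR), and ESPL1, which codes for the separase that securin inhibits, rose by 0.19 (adjusted p = 0.033, edgeR), from 14.2 ± 0.987 to 16.8 ± 0.181 FPKM (SD, n = 3). That rise of ESPL1 was lost with any of 5 libraries left out, control replicates 1 and 2 and the 3 replicates of 24 h, with log2 fold changes of 0.145 to 0.195.

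TOP2A, the topoisomerase that untangles chromosomes, fell by 0.21 on the log2 scale and MKI67, the Ki-67 protein of the surface of mitotic chromosomes, by 0.24. FOXM1, a transcription factor that drives many of the members, was at 21.1, 20.6 and 22.2 FPKM in the control, 21.1, 21.9 and 23.5 FPKM after 30 min and 23.7, 22.2 and 21.8 FPKM after 24 h. Its groups overlapped at 24 h, with a log2 fold change of 0.03 and a 95% interval from -0.09 to 0.16 (adjusted p = 0.648, edgeR), or -0.02 with the trend on GC content taken off. Of its exonic bases 15.9% are shared with ITFG2 on the other strand.

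The 24 h libraries were also set against the 30 min libraries, which had matrine as well. Of the members 29 fell and 2 rose, where 32.6% of the 11981 genes tested fell and 32.5% rose. The members' median log2 fold change was -0.29, against 0.01 over all genes tested. Here 5 members were called lower, against 11.5% of all genes tested: CCNB1, PLK1, CDC20, MAD2L1 and TTK. None was called higher, against 15.4% of all genes tested. All 24 h libraries stood below all 30 min libraries in 29 members, against 33.9% of all genes tested, and above them in 1, against 34.4%. This comparison shares its 24 h libraries with the one against the control. UBE2C, with 16.6 to 18.6 FPKM after 30 min, fell by 0.24 on the log2 scale (adjusted p = 0.018, edgeR), and AURKB had a log2 fold change of 0.09 (adjusted p = 0.25, edgeR).

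Other genes of mitosis were read from lists set up by function. Of 112 other mitotic genes 48 fell at 24 h (42.9%, against 31.8% of all genes tested) and 8 rose (7.14%, against 31.5%). Of the 112, 9 were called lower (8.04%, against 11.2%) and 2 higher (1.79%, against 15.1%). The median log2 fold change of the 112 was -0.13. Cohesin and condensin genes fell in 12 of 17 (70.6%), mitotic entry regulators in 7 of 12 (58.3%) and anaphase-promoting complex genes in 7 of 17 (41.2%). Other spindle and cytokinesis genes fell in 10 of 27 (37.0%) and other kinetochore genes in 10 of 33 (30.3%). Genes of B-MYB and the MuvB core fell in 2 of 6 (33.3%). The shares of these last lists, from 30.3% to 37.0%, were near the 31.8% of all genes tested. The largest called falls were those of ANAPC1, the scaffold of the anaphase-promoting complex, by 0.94 on the log2 scale, KNSTRN, a kinetochore and spindle protein, by 0.93, KIF2A, a motor that takes microtubules apart, by 0.86, CDC25A by 0.77, and KIF20B, a motor of cytokinesis, by 0.72. The 2 called higher were SKA1, a kinetochore protein that binds microtubules, and CENPI, a protein of the inner kinetochore. Their log2 fold changes were 0.67 and 0.59. CENPI lay just past the 1.5-fold threshold (0.5855 against 0.585), and with DESeq2 only 1 of the 112 was called higher. CDC25A went from 25.8 ± 0.909 FPKM in the control to 15.6 ± 0.327 FPKM after 24 h (SD, n = 3), so among the 3 CDC25 phosphatases 1 fell, 1 rose and 1 passed no test. At 30 min 2 of the 112 genes fell (1.79%, against 1.33% of all genes tested) and 1 was called lower (0.893%, against 0.544%), shares near those of all genes. CENPQ, of the inner kinetochore, had 10.2, 10.2 and 11.7 FPKM in the control and 6.92, 7.72 and 4.98 FPKM after 30 min (log2 fold change -0.69, adjusted p = 0.0037, edgeR). MASTL, the Greatwall kinase, fell by 0.43 (adjusted p = 0.023, edgeR). CENPQ was the 1 called gene, and with 30 min replicate 3 left out 0 of the 112 were called.

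Genes of DNA replication licensing and the fork were set beside the members as another group of genes used by dividing cells. Of 30 such genes 26 fell at 24 h (86.7%, against 31.8% of all genes tested) and none rose (against 31.5%). Of the 30, 7 were called lower (23.3%, against 11.2%), and the median log2 fold change of the 30 was -0.43. At 30 min none of the 30 fell or rose, where 1.33% of all genes tested fell and 0.293% rose. The median of the mitotic members (-0.28) lay between that of the replication genes and that of all genes tested (0.01). The difference between these lists was not tested.

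The libraries within a group were not equal for the members. Control replicate 2 was the lowest of its group in 20 of 40 members and the highest in 15, and 30 min replicate 3 was the lowest in 27 and the highest in 10. Across the 40 members, the deviation from the group mean followed the GC content of the transcripts most in 30 min replicates 2 and 3. The Spearman correlations there were -0.839 and 0.816, against -0.222 in 30 min replicate 1. In control replicates 1, 2 and 3 they were -0.516, 0.564 and -0.265, and in the 24 h replicates -0.121, -0.198 and 0.280. These are correlations across genes of 1 library and describe it only. Those of 1 group are not independent, since deviations are taken from its own mean. The members' median GC content was 45.5%, against 49.6% over all genes with a value. At 24 h the smooth trend of the log2 fold change on GC content over all genes took values from -0.10 to 0.09 at the members. With it taken off, the members' median was -0.25 and that of MAD2L1 was -0.54, below 1.5-fold, while CDC20 reached -0.65. With control replicate 2 and 30 min replicate 3 both left out, 4 members were called lower at 24 h and the median was -0.32.

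**Figure D5:**
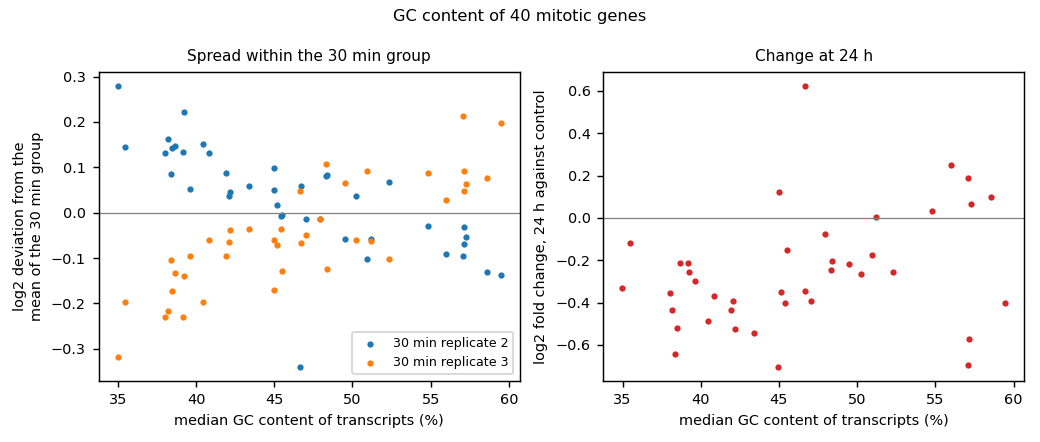
Left, log2 deviation of 40 mitotic genes from the mean of the 30 min group in 30 min replicates 2 and 3, against the median GC content of their transcripts. Right, log2 fold change at 24 h against the same GC content. On the left the deviation falls with GC content in replicate 2 (Spearman -0.839) and rises with it in replicate 3 (0.816), and on the right it follows GC content less (Spearman 0.327).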

How the data were processed

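RNA-seq was carried out by the authors on 9 U937 libraries, 3 each of control, 30 min and 24 h of 0.8 mg/ml matrine. The labels name a VAHTS mRNA-seq kit, and the study's methods name poly(A) selection or rRNA removal. The authors trimmed reads (cutadapt 1.9.1, per the processing notes), mapped them with HISAT2 2.0.1, counted them per gene with HTSeq 0.6.1 and deposited raw counts and FPKM values, which divide the counts by gene length and library total. The methods give hg38 as the build and the submitters' processing notes give GRCh37. Strand setting and annotation release are not given in the sources used here. Coordinates are those of GENCODE release 44 (GRCh38), joined by gene ID.

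Counts were tested with edgeR 4.0.16 (R 4.3.3): TMM normalisation, 1 quasi-likelihood fit to all 9 libraries, only genes whose FPKM averaged above 1 in the 6 libraries compared, Benjamini-Hochberg adjustment over all genes tested. Calls took adjusted p below 0.05 together with 1.5-fold or more. A standard error is the absolute log2 fold change divided by the root of the F statistic. DESeq2 1.42.0, limma 3.58.1 on log2(FPKM + pseudocount of 0.01, 0.1 or 1), other filters, scalings and each library left out were alternatives. The members and lists were chosen with earlier results of these data known. Values in every library are given for called members, the 6 members with the smallest change at 24 h, and AURKB and CDC20, which were added after their values were seen. Other mitotic genes were named where called with the 5 largest falls or rises at 24 h, CENPQ and MASTL as the 2 that fell at 30 min. Libraries of HL-60 and K562 cells are not analysed here, and 1 further marker list is not reported here.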

Additional observations from a re-analysis of the deposited data

Results flagged for a closer look

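The change at 24 h differed from that at 30 min by a test of the difference itself, which is the comparison of 24 h with 30 min, since both share their controls. Of the 31 members past its adjusted p threshold, 5 also reached 1.5-fold and are given here. The log2 differences were -0.776 for CCNB1, -0.752 for PLK1, -0.624 for CDC20, -0.602 for MAD2L1 and -0.587 for TTK, with adjusted p between 7.2e-11 and 2.1e-06 (edgeR). In each of these genes the 24 h libraries lay below all 30 min libraries, as they did in 33.9% of all genes tested. The 5 genes were picked by the same libraries, so this adds no support. The calls of CCNB1 and PLK1 were kept under every alternative run except a fold change of at least 2. Those of MAD2L1, TTK and CDC20 lay close to the 1.5-fold threshold and were lost under library totals, under limma and with a filter at 5 FPKM. The call of TTK was also lost with control replicate 2, 30 min replicate 1 or 2, or 24 h replicate 1 or 3 left out, with the replicate block (-0.583) and with the trend on GC content taken off (-0.542). That of MAD2L1 was also lost with 30 min replicate 2 or 24 h replicate 1 left out and with the GC trend taken off (-0.558).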

How the results depend on the processing

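At 24 h against the control, 23 to 31 members fell and 2 to 4 rose under the alternatives, against 24 to 32 and 0 to 4 at 24 h against 30 min. At 30 min 0 fell and 0 to 1 rose, the 1 being UBE2C with control replicate 2 and 30 min replicate 3 both left out. Calls rest on a fold of 1.5 (0.58 on the log2 scale), near which CDC20, BUB1B, KIF23, TTK, MAD2L1 and CDC25C lie, and each group has 3 libraries.

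Members called lower and higher at 24 h against the control (3 and 1) were 29 and 3 with no fold threshold, 0 and 0 at 2-fold and 7 and 0 with no FPKM filter. CDC25C was not called with a filter at 5 FPKM, which it did not pass (0 higher), or in limma with a pseudocount of 1 (0), where MAD2L1 (-0.562) was not called lower either. With a library left out there were 3 to 5 lower, 5 without control replicate 2, and 0 to 1 higher, 0 without control replicate 1. Against 30 min (5 and 0), they were 29 and 2 with no fold threshold, 0 lower at 2-fold, and 2 lower with a filter at 5 FPKM, library totals or limma with each pseudocount. Limma with 0.01 gave 1 higher. With a library left out there were 3 to 5 lower, 3 without 30 min replicate 2 or 24 h replicate 1, and 0 to 1 higher, 1 without 30 min replicate 1. The members' median against 30 min (-0.29) was -0.212 with library totals, which moved the median of all genes from 0.01 to 0.09, and -0.209, -0.2 and -0.21 in limma with 0.1, 1 and 0.01.

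Other mitotic genes called lower at 30 min (1) were 2 with no fold threshold, 0 at 2-fold and 0 with control replicate 2 and 30 min replicate 3 both left out; with 1 library left out they were 0 to 1. At 24 h against the control (9 and 2) they were 48 and 8 with no fold threshold, and 0 and 0 at 2-fold. There was 1 higher with no FPKM filter, the filter in either group, DESeq2's size factors, DESeq2 or 6 libraries alone, and 1 to 3 with a library left out. Against 30 min (5 and 2) they were 49 and 9 with no fold threshold and 0 and 0 at 2-fold, 10 and 1 with no FPKM filter, and 8 lower with both libraries left out. There were 4 higher with a filter at 5 FPKM, library totals or limma with 0.01. With a library left out there were 5 to 9 lower, 9 without 30 min replicate 3, and 1 to 3 higher.

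The direction at 24 h turned for UBE2C (-0.0614 with no filter, -0.02 with the filter in either group, -0.00257 with DESeq2's size factors, -0.00258 in DESeq2, -0.00376 with the GC trend off, and -0.0531 to 0.0516 with a library left out). It also turned for FOXM1 (-0.0332 with no filter, -0.0239 with the GC trend off, -0.000477 to 0.0538 with a library left out) and CDC25B (-0.0146 with the GC trend off). The GC trend and both libraries left out were chosen after seeing the data. The cause of these changes was not tested.

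Same replicate numbers did not pair the libraries: same-numbered libraries had correlations of -0.131 to 0.0944 in their deviations from the group means, others -0.128 to 0.149. With the replicate block 3 and 1 members were called against the control and 4 lower against 30 min, where TTK (-0.583) was lost.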
